A study of Mus musculus with 168 samples.

Results

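The Mir135 family was represented by Mir135b and Mir135a-2, 2 of the 1626 transcripts in the microRNA table of mouse cortex. They were found by their gene names in the GENCODE vM21 annotation of GRCm38. The pair was selected on earlier results for association with CAG length (Q) in these mice at 6 and 10 months, so their values at those ages are given below as a description, without a test. The same holds for the members in every comparison that reuses those values in the controls or in the slopes on Q. Tests are given at 2 months, between the sexes, which were balanced over genotypes, and for deviations of mice from their group means.

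The study asked how cortical microRNAs vary with the length of the CAG repeat in the huntingtin gene (Htt), whose expansion causes Huntington's disease. All knock-in mice were heterozygous: 1 Htt allele was the endogenous mouse allele and the other carried a human HTT exon 1, with the repeat length given in the strain name (Q20, Q80, Q92, Q111, Q140 and Q175). Unmodified littermates of the Q20 mice (WT) were included, and Q20 and WT mice served as controls. The labels give the strain of all mice as C57BL/6, and each of the 7 genotypes had 8 cortices at each of 3 ages (2, 6 and 10 months), 4 of females and 4 of males by the sex of the cage or, for the 6-month knock-in mice, whose names hold no cage, by the sex in the sample name. Q175 arose from the Q140 line by a spontaneous expansion, and the other lines were made as separate alleles, so line and repeat length go together. The 8 libraries labelled as 6-month WT are not among the groups that the methods list. They are shown apart, so that at 6 months Q20 alone was the control.

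MicroRNAs are cut from hairpin precursors, and bases 2 to 8 of the mature strand (the seed) select the messenger RNAs they repress. The miR-135 family is conserved among vertebrates and is expressed in brain. It is known for repressing APC, a negative regulator of Wnt signalling, and miR-135a is known for repressing the serotonin transporter and the serotonin receptor 1a in serotonergic neurons. Cortex is a mixture of cell types, and in whole tissue fewer cells of a type and less microRNA per cell cannot be told apart.

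The mouse genome has 3 hairpins of the family. Mir135b (ENSMUST00000083501) lies at chr1:132198088-132198184 on the plus strand of GRCm38, inside introns of the protein-coding gene Lemd1 and of AC124108.1. Mir135a-2 (ENSMUST00000083590) lies at chr10:92072086-92072185 on the minus strand, in an intron of the long non-coding RNA gene Rmst, whose transcript is known as a partner of SOX2 in neurogenesis. Mir135a-1 (ENSMUST00000083473) lies at chr9:106154124-106154213 on the plus strand, in an intron of D030055H07Rik, and opposite exons of Glyctk, a glycerate kinase gene. Mir1251 is a second microRNA of the Rmst gene, at chr10:92137140-92137223.

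The sequences below show why the loci have to be read together. They are RefSeq sequences of the GRCm38.p6 build, with the seed in capitals. The first is encoded identically at Mir135a-1 and Mir135a-2. The second is the stretch of the Mir135b hairpin most like it.
miR-135a-5p: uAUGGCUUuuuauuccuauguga
Mir135b hairpin, 5p stretch: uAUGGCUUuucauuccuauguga
Over 23 positions these differ by 1 substitution, U11C, counted from the 5′ end with the base of miR-135a-5p first, and the seed is shared. Among the 1738 mature entries of the RefSeq set, only miR-135a-5p at its 2 loci has that seed. The set holds no mature 5p entry of Mir135b, so the hairpin stretch stands in for it. The other arms differ more, and their seeds (in capitals) are 3 different ones.
miR-135b-3p: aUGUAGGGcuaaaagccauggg
miR-135a-2-3p: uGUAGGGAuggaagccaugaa
miR-135a-1-3p: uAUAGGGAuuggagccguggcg
In the whole hairpins of the members, the capitals mark the mature strands, with the stretch above standing for the 5p strand of Mir135b.
Mir135b hairpin: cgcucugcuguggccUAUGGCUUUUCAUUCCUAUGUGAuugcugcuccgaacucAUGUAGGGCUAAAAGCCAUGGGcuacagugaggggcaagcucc
Mir135a-2 hairpin: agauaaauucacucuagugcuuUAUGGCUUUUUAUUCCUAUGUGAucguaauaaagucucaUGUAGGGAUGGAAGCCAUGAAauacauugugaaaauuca

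The deposited values are estimated counts per transcript, with library totals from 2041741 to 11646287 (median 4810487). Mir135b received 137 to 553 counts per library (median 303). Its count was a whole number, within 0.001, in 167 of the 168 libraries. Mir135a-2 received 136 to 1046 (median 414), and its count was whole in 3 of 168. Mir135a-1 was whole in 3 libraries too, yet the sum of both Mir135a loci was whole in 167. The counts of miR-135a had thus been divided between the loci, and the value of Mir135a-2 depends on that division. The share assigned to Mir135a-2 ran from 14.9% to 58.5% of the Mir135a counts, with a median of 33.7%. For that reason the sum of both loci, an addition made after the data were seen, is given beside Mir135a-2. Levels below are read counts scaled to library size and TMM factors (CPM), and are not compared between genes. Counting error alone has a coefficient of variation of 8.54% at 137 counts of Mir135b, its lowest, and 4.25% at 553, its highest. Within the genotype and age groups that of Mir135b was 6.37% to 15.7%. The group with 6.37%, Q92 of 6 months, had 204 to 285 counts.

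Mir135b was lower with longer repeats at 10 months. At that age the 8 Q175 mice had 42.9 to 54.9 CPM (median 47.3). The WT mice had 55.9 to 83.8 CPM (median 68.1) and the Q20 mice 67.5 to 89.3 (median 68.8). All 8 Q175 values lay below the lowest of the 16 controls. In the group means, Q175 had 47.8 ± 3.41 CPM (SD, n = 8) and the controls 71.7 ± 9.16 (SD, n = 16), a difference of -33.4%. Among 327 microRNAs, 0.917% had all Q175 values below all control values. These were 3, Mir135b, Mir221 and Mir222, named after their values were seen.

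Q140 mice at 10 months had 50.98 to 66.8 CPM of Mir135b (median 58.1), and 3 of 8 lay below the lowest control. Q111 mice had 52.2 to 70.6 CPM (median 62.6), with 2 of 8 below. Q80 mice (56.1 to 76.0 CPM, median 68.1) and Q92 mice (62.4 to 77.3, median 72.1) lay inside the control range throughout. The order of the means ran from Q20 (72.7) through WT (70.7), Q92 (70.2), Q80 (67.9), Q111 (61.9) and Q140 (58.3) to Q175 (47.8). Of the 6 gaps between neighbours in this order, the one between Q140 and Q175, 10.5 CPM, was larger than the larger SD of its pair (5.82), and the ranges of these groups still overlapped.

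**Figure D1:**
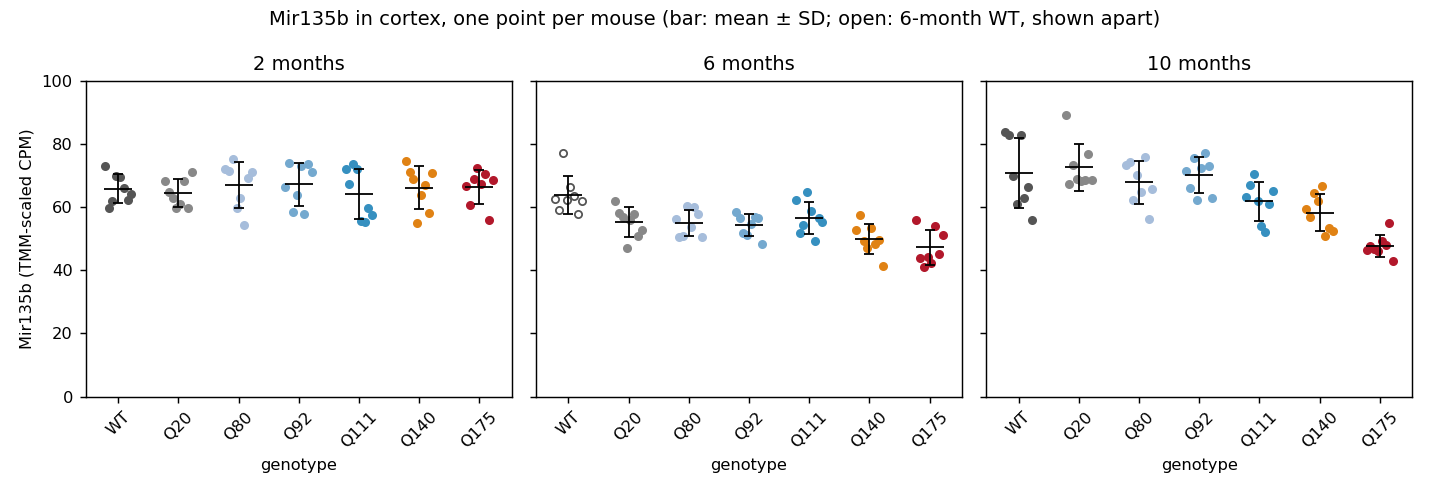
Mir135b level (TMM-scaled CPM, y axis) in each mouse by genotype (x axis) at 2, 6 and 10 months; bars give the mean ± SD of 8 mice, and open points are the 6-month WT libraries shown apart. At 2 months the group means sit between 64.2 and 67.3, and at 10 months all 8 Q175 mice (42.9 to 54.9) sit below every control mouse (55.9 to 89.3).

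Fitted in edgeR with sex as a covariate, the 10-month log2 difference of Mir135b from the controls was -0.60 (SE 0.07) in Q175, -0.30 (SE 0.07) in Q140 and -0.22 (SE 0.07) in Q111. In Q92 it was -0.04 (SE 0.07) and in Q80 -0.08 (SE 0.07). These 5 comparisons share the same controls. Per 100 CAG units the level changed by -0.31 log2 (SE 0.04) at 10 months over all 56 mice. Without the Q175 mice that slope was -0.20 (SE 0.05).

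At 6 months Mir135b spanned a smaller range. Q20 mice had 47.1 to 62.0 CPM (median 56.4). Q175 mice had 41.0 to 56.0 CPM (median 44.7), with 5 of 8 below the lowest Q20 mouse and all 8 below the Q20 median. Q140 mice had 41.3 to 57.6 CPM (median 49.5), with 2 of 8 below the Q20 range. The means of Q80 (55.0), Q92 (54.3) and Q111 (56.7) lay within 1.42 CPM of the Q20 mean (55.3), and the ranges of all these groups overlapped. The fitted log2 difference from Q20 was -0.23 (SE 0.09) in Q175 and -0.16 (SE 0.08) in Q140. The slope per 100 CAG was -0.17 (SE 0.05) over 48 mice and -0.09 (SE 0.06) without the Q175 mice.

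Library names hold a number after the letter L, read here as the lane number, which the labels do not state. A code, LB or V with its own number, usually follows. In the V libraries, all of 6 months, both numbers are the same, so there it need not be a lane. Lane numbers did not divide evenly between genotypes at 6 months. No Q80, Q92, Q140 or Q175 library of that age carried the lane number of a Q20 library. Lane 1 held 4 Q175 mice at 41.0 to 54.0 CPM of Mir135b and a single Q80 mouse at 60.3. In lane 2 the single Q175 mouse (51.2 CPM) lay inside the range of the 5 Q80 mice (50.5 to 60.1). Lanes that held both Q140 and Q92 did not order them alike. The single Q140 mouse of lane 5 had 41.3 CPM and the 4 Q92 mice 51.1 to 58.4, whereas in lane 7 both Q140 mice (49.3 and 57.6) and both Q92 mice (48.4 and 56.5) overlapped. In lane 6 a single Q140 mouse had 52.7 CPM and both Q92 mice 54.8 and 56.9. At 6 months the differences from Q20 and lane thus cannot be told apart. At 10 months, lane 6 held 3 Q175 mice at 46.4 to 49.2 CPM and 7 controls at 63.0 to 89.3, and lane 7 held 4 Q175 mice at 42.9 to 54.9 and 4 controls at 68.4 to 82.8. In lane 8 the single Q175 mouse had 46.3 CPM and the 5 controls 55.9 to 69.9. With lane as a covariate the 10-month Q175 difference was -0.63 (SE 0.07). The difference at 10 months was therefore present within each lane that held both groups. At that age the Q175 mice were in other cages than the controls, so genotype and cage cannot be told apart.

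**Figure D2:**
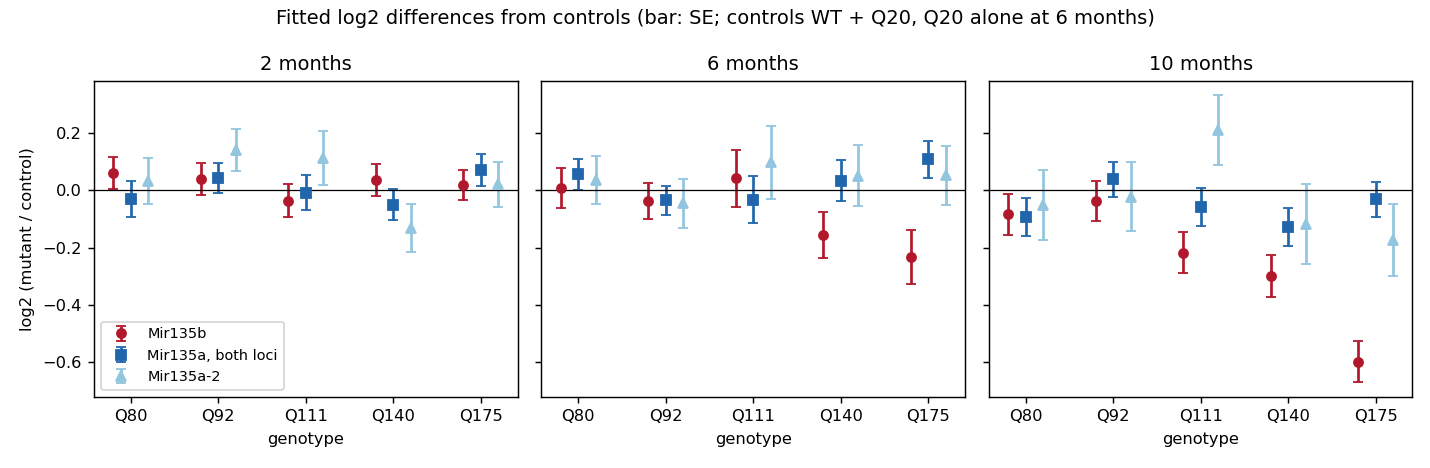
Fitted log2 difference from controls (y axis) for Mir135b, for the sum of both Mir135a loci and for Mir135a-2, by genotype (x axis) at 2, 6 and 10 months; bars are 1 SE. Mir135b reaches -0.60 in Q175 at 10 months while the Mir135a sum is at -0.03.

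The paralogous Mir135a, which shares the seed, did not follow this pattern in its summed counts. At 10 months Q175 mice had 258 to 325 CPM of both loci (median 294). The controls had 247 to 376 (median 298), so the Q175 values lay inside the control range. The fitted log2 difference was -0.03 (SE 0.06) in Q175 and -0.13 (SE 0.07) in Q140, and the slope per 100 CAG was -0.03 (SE 0.03). At 6 months Q175 mice had 182 to 229 CPM and Q20 mice 175 to 231, with a fitted log2 difference of 0.11 (SE 0.06). None of the neighbouring genotype means of the sum differed by more than the larger SD of the pair at any of the 3 ages.

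**Figure D3:**
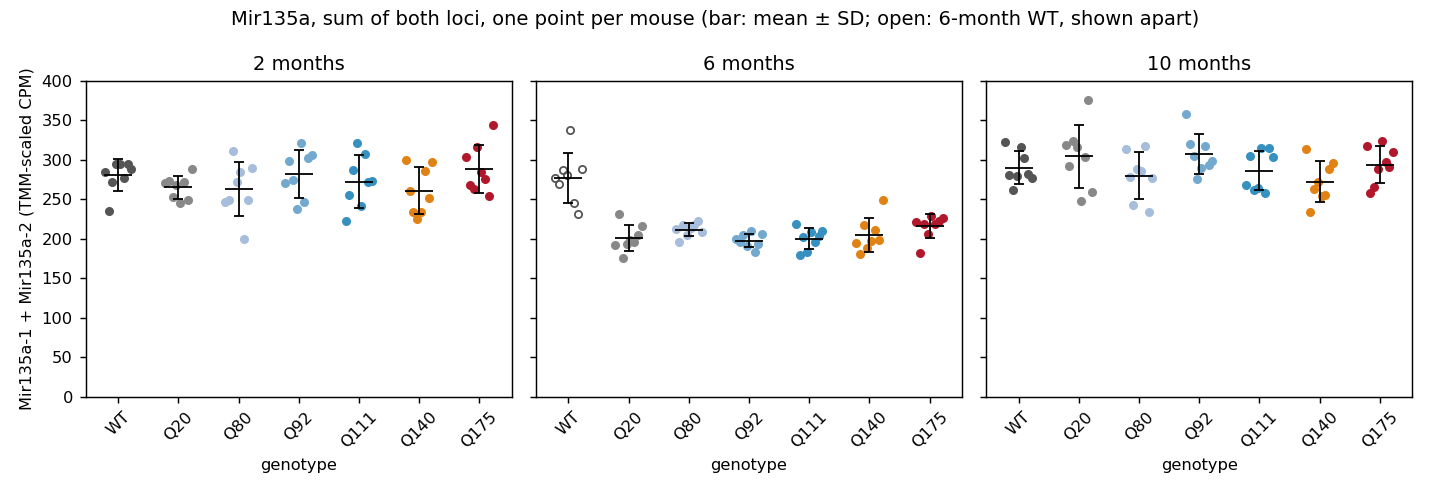
Summed level of Mir135a-1 and Mir135a-2 (TMM-scaled CPM, y axis) in each mouse by genotype (x axis) at 2, 6 and 10 months; bars give the mean ± SD of 8 mice, open points the 6-month WT libraries. The 10-month Q175 mice (258 to 325) lie inside the range of the controls (247 to 376), and at 6 months the 6 knock-in groups sit lower (means 198 to 216) than the 6-month WT libraries (277).

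Counted at its own locus, Mir135a-2 had 56.9 to 76.9 CPM in Q175 mice at 10 months (median 72.1). The WT mice had 39.0 to 111 CPM (median 74.2) and the Q20 mice 63.0 to 116 (median 80.8). The Q175 values lay inside the control range, and 7 of 8 were below the control median. The log2 difference was -0.17 (SE 0.12), and in Q111 it was 0.21 (SE 0.12) with 0 of 8 mice below that median. For the sum of both loci the Q111 difference had the opposite sign, -0.06 (SE 0.06). The mean share of Mir135a counts on Mir135a-2 was 31.6% in these Q111 mice and 25.9% in the controls. At 6 months Q175 mice had 72.9 to 115 CPM (median 103) and Q20 mice 78.2 to 113 (median 88.8), with a difference of 0.05 (SE 0.10). The slopes per 100 CAG were 0.01 (SE 0.06) at 6 months and -0.06 (SE 0.06) at 10 months.

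Relative to Mir135a, Mir135b can be followed within each library, free of the library total and the scaling factor. At 10 months there were 13.8 to 18.9 Mir135b counts per 100 counts of both Mir135a loci in the Q175 mice (median 16.1). In the controls there were 20.2 to 29.5 (median 23.3), and the groups did not overlap. This ratio reuses the 10-month Mir135b values given above, so it is not a separate result. How many other ratios would separate the groups was not counted. Q140 mice had 17.8 to 26.2 (median 21.3). At 6 months Q175 mice had 18.5 to 25.2 (median 21.99) and Q20 mice 24.4 to 32.4 (median 26.7), with 6 of 8 Q175 mice below the lowest Q20 mouse. At 2 months Q175 mice had 19.9 to 26.1 (median 22.8) and the controls 21.1 to 25.7 (median 23.9).

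**Figure D4:**
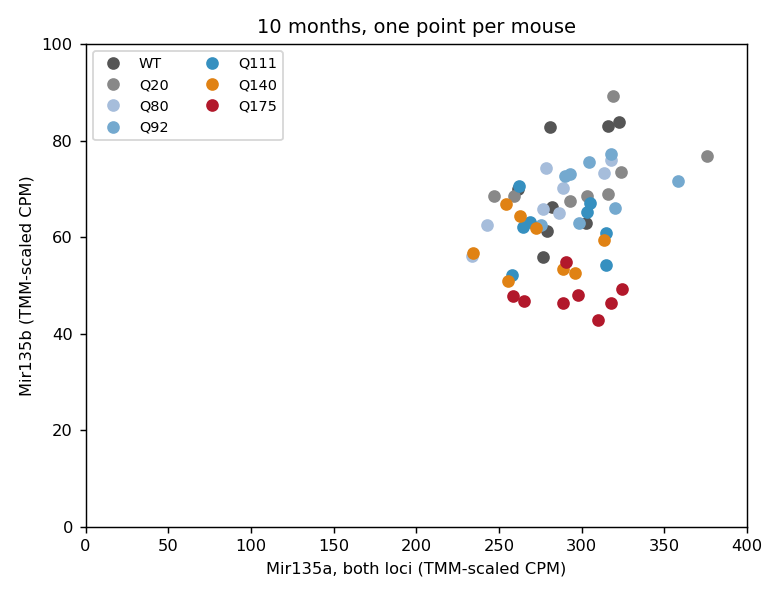
Mir135b (y axis) against the sum of both Mir135a loci (x axis), both in TMM-scaled CPM, for each of the 56 mice of 10 months, coloured by genotype. The Q175 mice lie lowest on the Mir135b axis and in the middle of the Mir135a axis, with 13.8 to 18.9 Mir135b per 100 Mir135a.

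At 2 months no change of the family with Q passed the test. WT mice had 59.7 to 73.1 CPM of Mir135b (median 65.1), Q20 mice 59.7 to 71.2 (median 63.9) and Q175 mice 55.8 to 72.5 (median 68.03), and the groups overlapped. The slope of Mir135b per 100 CAG was 0.01 log2 (95% interval -0.06 to 0.07, edgeR quasi-likelihood adjusted p = 0.999). The slope of Mir135a-2 was -0.01 (95% interval -0.11 to 0.10, edgeR adjusted p = 0.999) and that of the sum 0.01 (-0.05 to 0.08). In this comparison edgeR called 0% of 327 microRNAs at a Benjamini-Hochberg FDR of 0.05. The unadjusted p was under 0.05 for 13, and DESeq2 called 0.

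Taken genotype by genotype at 2 months, Mir135b differed from the controls by between -0.04 (Q111) and 0.06 log2 (Q80), each with an SE of 0.05 to 0.06. For Q175 the difference was 0.02 (95% interval -0.08 to 0.12, edgeR adjusted p = 0.962). Mir135a-2 differed by -0.13 (SE 0.09) in Q140 and by 0.14 (SE 0.07) in Q92, the lowest and highest of the 5, with adjusted p of 0.996 and 0.386 in edgeR. Neither locus passed in any of the 5 genotypes. The share of microRNAs called by edgeR was 0% for Q80, 0% for Q92, 0% for Q111, 0% for Q140 and 0% for Q175, while 27, 48, 16, 8 and 19 microRNAs had an unadjusted p under 0.05. DESeq2 called 2, 9, 0, 1 and 0.

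The 10-month controls entered the choice of the members, so their levels at both ages are described without a test. For Mir135b the 16 controls of 2 months had 59.7 to 73.1 CPM (median 64.5) and the 16 of 10 months 55.9 to 89.3 (median 68.8), so the ranges overlapped. The fitted log2 difference was 0.14 (SE 0.05), and it depended on the scaling, the filter and the controls used. It was 0.07 (SE 0.05) with library size alone, 0.09 (SE 0.05) with a filter on expression and 0.08 (SE 0.09) in the WT mice only. Over all microRNAs in this comparison edgeR called 49.4% (162 of 328, 86 higher and 76 lower, and 60 higher and 101 lower with library size alone as scaling). Lane numbers were 6 to 8 at 10 months and, but for lane number 7, others at 2 months, so that age and lane cannot be told apart. With lane number 7 some numbered LB codes occur at both ages, so this number need not be a shared lane.

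Mir135a-2 had, in the controls, 70.4 to 114 CPM at 2 months (median 87.9) and 39.0 to 116 at 10 months (median 75.6). Its log2 difference was -0.20 (SE 0.09), of opposite sign to that of Mir135b. For the sum of both Mir135a loci the difference was 0.13 (SE 0.05), with 235 to 295 CPM at 2 months and 247 to 376 at 10 months. The share of Mir135a counts assigned to Mir135a-2 was 26.5% to 41.6% (median 31.2%) in the controls of 2 months and 14.9% to 35.3% (median 26.6%) in those of 10 months. Mir1251, the other microRNA of Rmst, had 6.11 to 11.4 CPM at 2 months and 4.27 to 12.4 at 10 months. Its log2 difference was -0.27 (SE 0.11, edgeR adjusted p = 0.0498), on 15 to 63 counts per library in these controls.

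**Figure D5:**
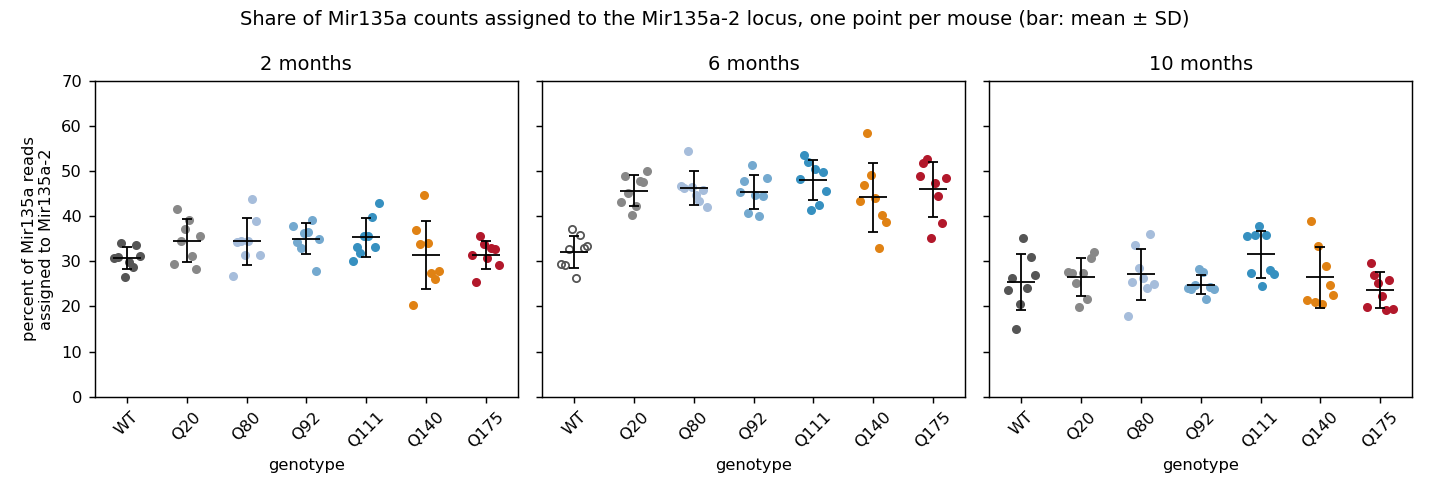
Percent of Mir135a counts assigned to the Mir135a-2 locus (y axis) in each mouse by genotype (x axis) at 2, 6 and 10 months; bars give the mean ± SD of 8 mice. The 6 knock-in groups of 6 months have means of 44.2% to 48.0%, above the 6-month WT libraries (32.1%) and above all groups of 2 months (30.7% to 35.3%) and 10 months (23.6% to 31.6%).

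The division of Mir135a counts differed between sets of libraries. In the 6-month knock-in groups the mean share on Mir135a-2 was 44.2% to 48.0%, and the mean summed level was 198 to 216 CPM. In the 6-month WT libraries the share was 32.1% ± 3.57 (SD, n = 8) and the sum 277 ± 31.8 CPM. Their Mir135b level, 57.7 to 77.2 CPM (median 62.4), lay higher than that of Q20 at that age (47.1 to 62.0), with overlap. All 8 of these libraries carried lane number 3, as did 3 Q20 libraries, which had 51.002 to 57.96 CPM. Some of these WT libraries repeat the numbered LB codes of Q111 libraries with the same lane number. The shared number therefore need not be a shared lane. They also stood apart in Mir10a and Mir10b, which mark hindbrain and spinal cord, with summed levels of 425 to 1699 CPM (median 1020) against 262 to 594 (median 387) in the other 48 libraries of 6 months. The part of dissection or library set in the Mir135 levels was not tested. With the 6-month WT libraries added as controls, the 6-month Q175 difference of Mir135b was -0.38 (SE 0.10).

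The control genotypes did not differ detectably in either member at 2 months. Q20 against WT, Mir135b differed by -0.03 log2 (95% interval -0.15 to 0.09, edgeR adjusted p = 0.947) and Mir135a-2 by 0.09 (-0.09 to 0.27, edgeR adjusted p = 0.882). At 10 months, where no test is given, the differences were 0.03 (SE 0.09) for Mir135b and 0.13 (SE 0.16) for Mir135a-2. edgeR called 0% of 326 microRNAs at 2 months and 0% of 325 at 10 months. Before adjustment p was under 0.05 for 14 and 12 of them, and DESeq2 called 0 and 0.

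Sex made no difference that passed. At 6 months the library code (V or LB), a covariate there, and the lane numbers did not divide evenly between the sexes. In Q111 of that age all males and no females carried the V code. Mir135b in males was -0.07 log2 (SE 0.04) from females at 2 months, -0.05 (SE 0.04) at 6 months and -0.08 (SE 0.04) at 10 months, with edgeR adjusted p of 0.675, 0.723 and 0.83. For Mir135a-2 the differences were 0.04 (SE 0.06), -0.06 (SE 0.05) and -0.00 (SE 0.07), with adjusted p of 0.923, 0.711 and 0.999 in edgeR. The share of microRNAs called was 0.612%, 0.306% and 0.305% at the 3 ages. In a joint fit of the 104 mice of 6 and 10 months, given as a description because the slopes entered the choice, the slope of Mir135b on Q differed between males and females by 0.04 (SE 0.06). The slope of Mir135a-2 differed by -0.23 (SE 0.08) and that of the Mir135a sum by 0.06 (SE 0.05). In that comparison 0% of 328 microRNAs passed, 18 had an unadjusted p under 0.05, and DESeq2 called 0.

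From mouse to mouse within a group, Mir135b and Mir135a-2 did not move together detectably. The deviations of log2(CPM + 1) from the group mean had Pearson's r = 0.03 over 160 mice (permutation p = 0.678, adjusted p = 0.982) and Spearman's rho = 0.04 (permutation p = 0.6, adjusted p = 0.805). Within ages r was -0.00 at 2 months (56 mice), -0.05 at 6 months (48) and 0.11 at 10 months (56), each with a permutation adjusted p of 0.982 over these 4 relations. Without the 2 mice farthest from the median of Mir135b, r over all ages was 0.04. With the sum of both Mir135a loci in place of Mir135a-2, r was 0.30 over 160 mice (rho = 0.28; permutation p = 0.00014 and 0.00041, adjusted 0.00028 and 0.00082) and 0.26 without the 2 farthest. Within ages that r was 0.52 at 2 months (rho = 0.49, adjusted permutation p = 0.00012), -0.12 at 6 months (rho = -0.04, adjusted permutation p = 0.402) and 0.31 at 10 months (rho = 0.30, adjusted permutation p = 0.025). The sign at 6 months was opposite to that of the other ages, and a difference between ages was not tested. The values share the library total and the scaling factor of each library.

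The microRNAs whose group means followed those of Mir135b most closely were Mir212 (Pearson's r = 0.89), Mir34a (0.87), Mir221 (0.87), Mir674 (0.82) and Mir132 (0.81). These values describe 20 genotype and age groups centred within age, among 220 microRNAs with a mean of at least 10 CPM. Mir132 and Mir212 are cut from 1 precursor transcript and are known to respond to neuronal activity, and Mir34a is a known target of p53. For Mir135a-2 the closest were Mir532 (0.62), Mir760 (0.61), Mir7b (0.57), Mir7-2 (0.55) and Mir7-1 (0.54). The likeness of the members to each other was 0.24, which ranked Mir135a-2 50th among the microRNAs like Mir135b.

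Marker lists were read beside these results. In the controls of 10 against 2 months, 26.2% of all microRNAs tested were called higher and 23.2% lower in edgeR, with a median log2 difference of 0.00. Of 14 measured neuronal microRNAs, 7 were higher and 0 lower there (median 0.12), and 0 passed for Q at 2 months. The oligodendrocyte microRNAs Mir219a-1 and Mir219a-2 summed to 369 to 496 CPM in the 2-month and 531 to 679 in the 10-month controls, without overlap, with a median log2 difference of 0.28 and 1 of 2 called higher. The myeloid marker Mir155 (0.48) and the blood marker Mir144 (0.29) were called higher. Of 6 choroid plexus microRNAs 3 were higher and 2 lower (median 0.45). In the vascular, liver and hindbrain lists 1 microRNA each was called lower, of 3, 3 and 2. The part of these changes in the Mir135 levels between ages was not tested.

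For Q175 against the controls at 10 months, edgeR called 6.73% of all microRNAs lower. The summed level of the neuronal list was 101127 to 113436 CPM in the Q175 mice of 10 months and 106186 to 125868 in the controls, with a median log2 difference of -0.15 in Q175 against -0.01 over all tested, and 5 of 14 were called lower and 0 higher. Mir132 and Mir212 belong to that list. The 6 choroid plexus microRNAs, among them Mir204 and Mir211, summed to 2695 to 3332 CPM in the Q175 mice of 10 months and to 2629 to 12350 in the controls, with a median log2 difference of -1.06 and 4 of 6 called lower. Over all ages 11 libraries were above 2 times the median of this sum (3350 CPM), all of 10 months, 3 of them controls and 0 of them Q175. Without these 11, 2 of 6 choroid plexus microRNAs (median -0.67) and 4 of 14 neuronal ones (median -0.11) were still called lower in Q175. The difference of Mir135b was -0.59 (SE 0.08) without these libraries and -0.60 (SE 0.07) with them. Both oligodendrocyte microRNAs summed to 584 to 669 CPM in Q175 and 531 to 679 in the controls of 10 months, and overlapped in full. The vascular list (16383 to 21835 against 16863 to 24015 CPM), the liver list (930 to 1116 against 967 to 1152), Mir144 (37.3 to 48.8 against 36.3 to 58.5), Mir155 (6.07 to 11.99 against 3.15 to 10.8) and the hindbrain list (242 to 541 against 169 to 489) overlapped between Q175 and controls too. The part of cell composition in the level of Mir135b was not tested.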

How the data were processed

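Small RNA of cortex from 168 mice was sequenced. Per the study's methods, the authors aligned clipped 36-base reads to mm10 (GRCm38) with STAR, and they deposited estimated counts per Ensembl transcript, without normalization. The submitters' processing notes name CASAVA 1.8.2. The methods name HTSeq, but 46.8% of the values above 0 were not whole, so how shared reads were divided is not given in the sources used here. A table of FPKM was not used. Counts were rounded and tested over the study's microRNA list (329 of 480 symbols matched, at least 1 count in a fit) with edgeR 4.0.16 in R 4.3.3 (TMM, robust quasi-likelihood F test, two-sided, Benjamini-Hochberg over all tested; SE from the F statistic, 95% interval as 1.96 SE). Covariates were the sex of the cage, which differs from the label in 2 libraries (at 6 months, where knock-in libraries name no cage, the sex in the sample name), and the library code at 6 months. CAG length entered as a number, 7 for WT. DESeq2 1.42.0, other normalizations, filters, covariates and control sets were alternatives. Each library was a separate mouse. By the cage codes of 2 and 10 months, mice of the same genotype and sex mostly shared a cage. Each cage held mice of a single line, with WT in the cages of the Q20 line. Line and cage therefore cannot be told apart. Cage was not modelled, and cage-mates were treated as independent. No 2 libraries were identical. Correlations used 100000 permutations. The fit was tested on simulated counts. The members and lists were chosen with earlier results of these data known. Fits between ages in the controls, of Q20 against WT at 10 months and of sex by Q were planned as tests and are given for the members as a description. Named were the members, the other Mir135 locus, Mir1251, and the 5 microRNAs most like each member. Intervals and counting error cover sampling alone.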

Additional observations from a re-analysis of the deposited data

Results flagged for a closer look

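In 63 groups of 8 mice (21 genotype and age groups for Mir135b, Mir135a-2 and the sum of both Mir135a loci), the highest or lowest mouse was set against the gap to its nearest neighbour, relative to the range of its group. About 1 group in 20 passes by chance, and 5 passed. For Mir135b these were the 6-month WT female F3, at 77.2 CPM where the other 7 had 57.7 to 66.3, and the 10-month Q20 female F1, at 89.3 CPM where the others had 67.5 to 76.8. For Mir135a-2 they were the 6-month Q80 female F3, at 118 CPM against 87.6 to 102, and the 6-month Q140 female F3, at 127 CPM against 69.6 to 96.9. For the Mir135a sum it was the 2-month WT female F2, at 235 CPM against 272 to 295. The Q140 mouse had the highest share of Mir135a counts on Mir135a-2, 58.5%. Their library totals, 3182784 to 6439527, lay within the range of the series, and the cause was not tested.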

How the results depend on the processing

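Most values for the members kept their direction under the alternatives. Among the values planned as tests 23 changed sign, and 4 described values moved by more than 1 SD. The differences from controls and slopes on Q described at 6 and 10 months are outside the count of signs. The 10-month Q175 difference of Mir135b stayed between -0.63 and -0.58 in all 11 alternatives run. The difference of Mir135b in the controls of 10 against 2 months, described without a test, was 0.0732 with library size alone, 0.0912 with a filter on expression, 0.104 with all transcripts, 0.136 in Q20 mice only, 0.0763 in WT mice only and 0.114 without the 5 libraries that stood apart. That of Mir135a-2 was -0.271 with library size alone, -0.218 with DESeq2, -0.253 with the filter and -0.23 without the libraries high in choroid plexus markers. With the 6-month WT libraries added to the Q20 controls, the 6-month differences of Mir135b were -0.132 (Q80), -0.0827 (Q111), -0.284 (Q140) and -0.384 (Q175). Summing the Mir135a loci, chosen after seeing the data like both settings that leave out libraries, turned the sign of Mir135a-2 for age (0.131), for Q at 2 months (0.0137), Q80 (-0.0315) and Q111 (-0.00791) at 2 months, Q20 against WT at 2 months (-0.0811), sex at 6 (0.0505) and 10 months (0.00914) and sex by Q (0.0613). It also took the correlation with Mir135b to 0.298 over all ages, 0.518 at 2 months and 0.313 at 10 months. Outside that count, summing turned the described Mir135a-2 difference of Q111 at 10 months from 0.211 to -0.058. That of Q111 at 6 months went from 0.0985 to -0.0328, and that of Q92 at 10 months from -0.0225 to 0.0388. The other changes of sign in the count were in values near 0. They were Mir135b for Q at 2 months without the libraries that stood apart (-0.000889) and for Q20 against WT at 10 months (-0.0474 with lane, -0.0101 without those libraries), and Mir135a-2 for Q at 2 months with lane (0.0192), Q80 and Q175 at 2 months against Q20 only (-0.00608 and -0.033), and the 2-month correlation by library size (0.0278). Sex at 10 months for Mir135a-2 turned to 0.00242 (library size), 0.00319 (filter), 9.5e-05 (all transcripts), 0.0129 (sex of the label), 0.00431 (replicate block), 0.00772 (lane) and 0.00142 (without the libraries that stood apart).

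With sex and title number as a replicate block, the age difference of Mir135b in the controls was 0.139, and the 10-month Q175 difference was -0.58. Same-numbered libraries of different groups had a mean correlation of deviations of -0.0447, -0.0405 and 0.00719 at 2, 6 and 10 months, so the numbers do not pair mice. The replicate block changed no call for the members. Numbers of microRNAs called at 2 months became 1 (library size) and 2 (DESeq2) for Q80, 9 (DESeq2), 4 (filter), 5 (lane), 6 (without the libraries that stood apart) and 3 (Mir135a loci summed) for Q92, and 1 (DESeq2) for Q140. For sex at 6 months 1 became 0 with 6 settings, 4 with the replicate block and 3 without the library code, at 10 months 3 with all transcripts and 2 with the label's sex or the replicate block, and for sex by Q 4 with all transcripts. Counting error limits Mir1251, at 4 to 83 counts, more than the members.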
